A study of Homo sapiens with 18 samples.

Results

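The DNA methylomes of HCT15 and PC3 were compared CpG by CpG and promoter by promoter, using reduced representation bisulfite sequencing (RRBS). CpGs on chromosomes 1 to 20 were kept when both lines had at least 20 reads, and the methylation level of a CpG is the number of methylated reads as a percentage of all reads. This left 1043434 shared CpGs of the 2427632 listed for both lines, out of 2727220 CpGs for HCT15 and 3046836 for PC3. A promoter was taken as 1 kb either side of the 5′ end of a protein-coding gene and was measured when it held at least 5 shared CpGs, which applied to 11845 of 18550 genes. A CpG or promoter is called higher in a line when the difference is at least 50 percentage points (points below).

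HCT15 is an established line from a human colorectal carcinoma and PC3 an established line from a human prostate cancer, both bought from a cell bank and with no treatment named. The series benchmarks 5 kits that capture methylated DNA on 3 cell lines, the third being DU145, another prostate cancer line. It holds 15 capture libraries and 3 RRBS libraries, 1 for each kit and line. With 1 RRBS library per line there is no replicate error, each line is 1 culture, and differences are between these 2 libraries and cannot be told apart from differences between cultures or library preparations. Tissue of origin is likewise not separable from any other difference between the 2 lines.

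In mammals a methyl group is added mainly to cytosines that precede guanine. Most of the genome is CpG-poor and methylated, whereas the CpG-rich stretches around many gene starts, called CpG islands, are usually free of methylation. Methylation of an island promoter goes with stable silencing of its gene, and cancer cells gain it at many developmental, tissue-specific and tumour suppressor genes. RRBS reads the CpG-rich fraction of the genome at single-base resolution after bisulfite has converted unmethylated cytosines. Capture kits instead pull down DNA fragments that carry methylated CpGs with a methyl-binding domain, so that their depth depends on both the level and the density of methylated CpGs.

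The following stretches show what a called promoter looks like, as the reference sequence (GRCh37, plus strand, 5′ to 3′) of 5 of the named promoters, 3 higher in HCT15 and 2 higher in PC3. Capitals mark the CpGs with at least 20 reads in both lines. Each stretch is the one of at most 200 bases with the most shared CpGs that lies outside annotated untranslated regions. The first 3 were methylated in HCT15 and nearly free of methylation in PC3, and the last 2 the reverse.
CDH2: ccCGcccCGcCGaagCGcccCGta
PRICKLE1: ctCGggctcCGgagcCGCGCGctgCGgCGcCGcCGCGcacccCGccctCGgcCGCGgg
GOLGA8A: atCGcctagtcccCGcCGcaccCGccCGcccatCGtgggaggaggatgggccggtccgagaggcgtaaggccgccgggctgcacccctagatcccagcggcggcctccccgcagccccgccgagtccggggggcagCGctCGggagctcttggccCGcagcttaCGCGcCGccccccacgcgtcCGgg
PTP4A2: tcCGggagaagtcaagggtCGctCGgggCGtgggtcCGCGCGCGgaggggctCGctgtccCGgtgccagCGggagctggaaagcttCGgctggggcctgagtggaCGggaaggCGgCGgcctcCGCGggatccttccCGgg
PXMP4: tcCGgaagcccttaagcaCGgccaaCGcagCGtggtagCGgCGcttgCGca

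The CDH2 stretch (chr18:25758090-25758113) spans positions -203 to -180 from the 5′ end, upstream of the gene and outside any exon, and its 5 CpGs were between 94.1% and 100% methylated in HCT15 and all at 0% in PC3. The PRICKLE1 stretch (chr12:42983550-42983607) lies 550 to 607 bases into the gene in no annotated exon, and its 14 CpGs averaged 91.0% in HCT15 against 5.17% in PC3. The GOLGA8A stretch (chr15:34729339-34729526), also outside exons, averaged 95.8% against 4.49% over 13 CpGs. GOLGA8A belongs to a family of near-identical copies, so reads may have been placed between copies and its value is uncertain. The PTP4A2 stretch (chr1:32410290-32410430) overlaps a non-coding exon 27 to 167 bases into the gene, and its 18 CpGs averaged 10.3% in HCT15 against 96.1% in PC3. The PXMP4 stretch (chr20:32307911-32307961) overlaps coding sequence and averaged 14.3% against 98.9% over 7 CpGs.

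Across the shared CpGs the lines were mostly alike, and where they parted HCT15 was far more often the methylated one. The mean level was 58.6% in HCT15 and 53.0% in PC3, the median difference was 0 points, and 77.5% of the CpGs lay within 20 points. Both lines were at 80% or above at 34.4% of the CpGs and at 20% or below at 26.9%. HCT15 was at least 50 points higher at 69234 CpGs (6.64%) and PC3 at 17054 (1.63%), a ratio of 4.06. In the plot of the CpGs by their level in each line the 2 crowded corners stand out, and the lower right corner is denser than the upper left.

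**Figure D1:**
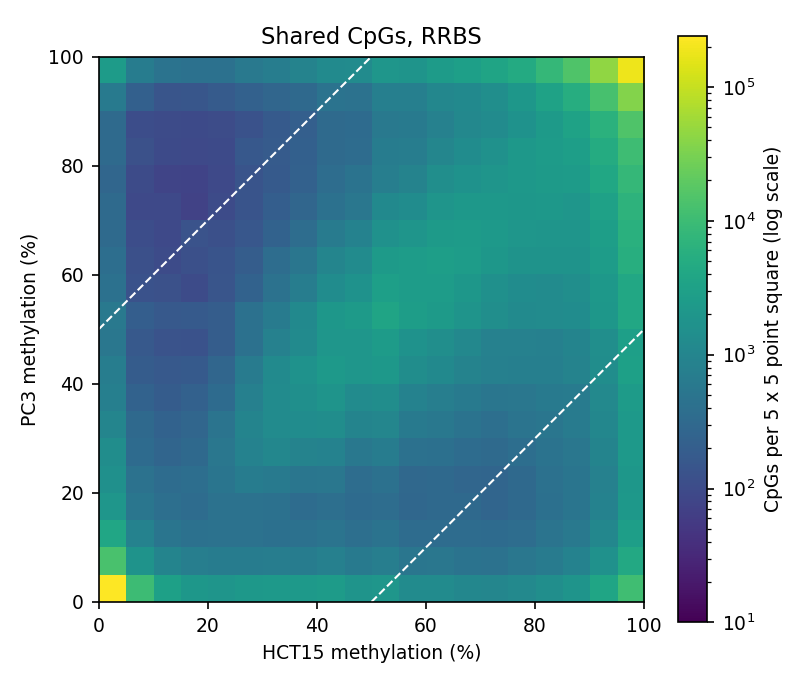
Shared CpGs in squares of 5 by 5 percentage points, with the methylation level in HCT15 on the horizontal axis, that in PC3 on the vertical axis and the number of CpGs as colour on a log scale. CpGs below the right dashed line (69234) were at least 50 points higher in HCT15 and those above the left dashed line (17054) at least 50 points higher in PC3.

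At the 69234 CpGs higher in HCT15 the median level was 95% in HCT15 and 9.68% in PC3, and at the 17054 higher in PC3 it was 14.0% and 95.6%. HCT15 was at 80% or above and PC3 at 20% or below at 34862 CpGs, and the reverse held at 6622. Median coverage at the shared CpGs was 34 reads in HCT15 and 44 in PC3, at the CpGs higher in HCT15 33 and 52, and at those higher in PC3 36 and 39. By Fisher's exact test on the reads of these 2 libraries, which compares libraries and not cell lines, 147273 CpGs differed towards HCT15 and 55381 towards PC3 at a Benjamini-Hochberg adjusted p under 0.05, and all CpGs called by size were among them.

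CpGs inside the sequence CCGG behaved unlike their neighbours, and this bears on every average below. CCGG is the site of MspI, the enzyme usual in RRBS, although the enzyme is not given in the sources used here. Such CpGs made up 28.0% of the shared CpGs. In CpG-dense sequence, with over 20 CpGs within 100 bases either side, their median level was 58.5% in HCT15 and 56.1% in PC3, whereas all other CpGs in such sequence had medians of 0% and 1.10%. Only 1.78% of CCGG CpGs were called higher in HCT15 and 0.692% higher in PC3, against 8.53% and 2.00% of the others. In PRICKLE1, whose stretch holds 1 CCGG, that CpG accounts for the highest PC3 level of 62.4% where the remaining 13 averaged 0.77%. The cause was not tested. The values below include CCGG CpGs unless stated, which raises the mean of promoters that are otherwise unmethylated.

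The tilt towards HCT15 depended on where a CpG lay. In promoters 7.38% of CpGs were higher in HCT15 and 0.922% in PC3, a ratio of 8.01, whereas in introns the shares were 5.12% and 2.10%, a ratio of 2.44. The ratio was 4.16 in exons and 3.78 between genes. By CpG density the ratio rose from 2.13 where 1 to 5 CpGs lay within 100 bases either side to 10.1 where there were over 20. In promoters with over 20 CpGs within 100 bases either side it was 13.0, and in promoters with 1 to 5 it was 1.19. Leaving out CCGG CpGs gave a promoter ratio of 8.20 and an intron ratio of 2.59.

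Both lines showed a dip in methylation at the 5′ end of genes. In the first 250 bases of genes the mean was 23.2% in HCT15 and 17.5% in PC3, and at the same distance upstream 22.4% and 17.6%. The gap between the lines was largest inside the gene, with 46.7% against 36.3% in the 250 bases centred 1375 bases downstream. There 11.2% of CpGs were higher in HCT15, compared with 5.72% at 1375 bases upstream. The share higher in PC3 ran the other way, at 1.12% downstream and 2.75% upstream.

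**Figure D2:**
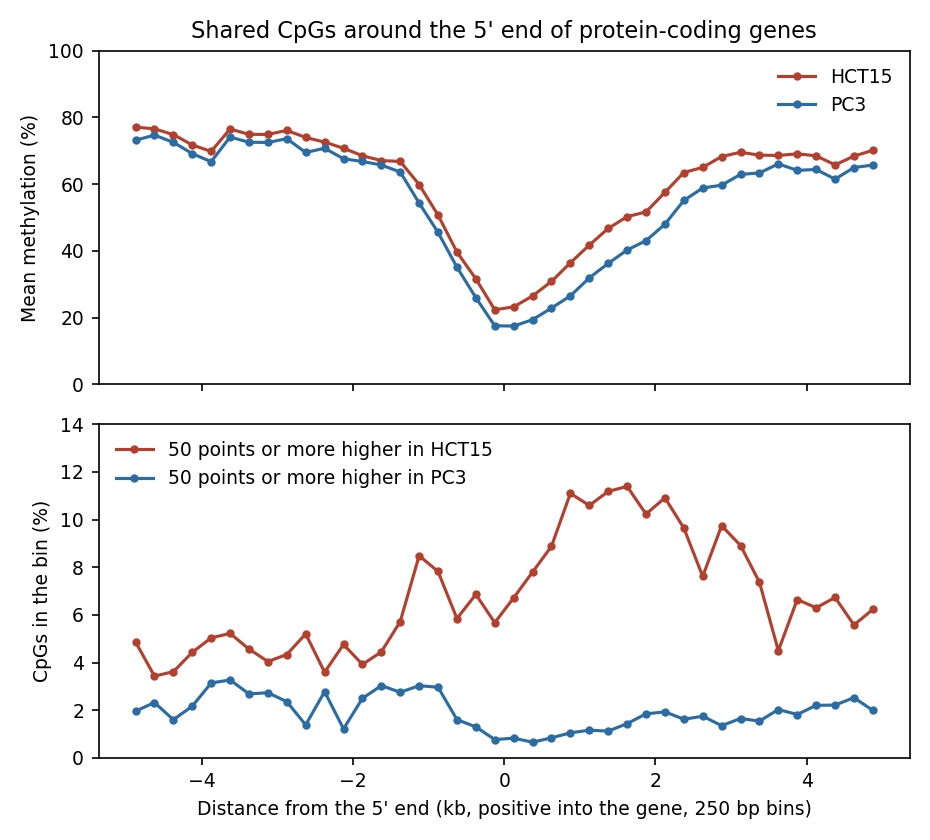
Mean methylation of shared CpGs (upper panel, %) and the share of CpGs at least 50 points higher in either line (lower panel, %), in 250 bp bins by distance from the 5′ end of the nearest protein-coding gene, with positive distances inside the gene. The HCT15 line lies above the PC3 line in all bins, and the share higher in HCT15 reaches 11.4% at 1625 bases inside genes.

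On every one of the 20 chromosomes more CpGs were higher in HCT15 than in PC3. The ratio ran from 2.58 on chromosome 17 to 7.11 on chromosome 10. On chromosome 10, 4091 CpGs (8.84%) were higher in HCT15 and 575 (1.24%) in PC3. Of its 489 measured promoters 44 (9.00%) were higher in HCT15 and 0 in PC3. On chromosome 17 the counts were 4220 (5.75%) and 1634 (2.23%) CpGs, and 40 (5.17%) and 6 (0.776%) of 773 promoters. Over all 20 chromosomes the shares were 6.64% and 1.63% of CpGs and 6.48% and 0.633% of promoters. The 0 towards PC3 on chromosome 10 is thus close to the share of all promoters.

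Called CpGs often lay side by side. Runs were formed from consecutive shared CpGs at most 500 bp apart that were all called the same way. HCT15 had 3824 runs of at least 5 CpGs, which held 43.7% of its called CpGs, and PC3 had 584, which held 25.5%. The longest run in HCT15 had 28 CpGs over 687 bases at PRICKLE1 (chr12:42982867-42983553), with means of 97.8% and 3.74%. The next were 27 CpGs at GFPT2, which encodes an enzyme of hexosamine synthesis (94.9% against 7.87%), 27 at ELFN1 (89.3% against 5.73%) and 26 at GABBR2, a subunit of the GABA-B receptor (94.1% against 3.78%).

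The longest run in PC3 held nearly as many CpGs but spanned fewer bases. It held 27 CpGs over 280 bases at KLF14 (chr7:130418723-130419002), a transcription factor gene without introns, with means of 3.49% in HCT15 and 96.8% in PC3. A run of 26 CpGs lay inside CCDC102A, 7484 bases from the nearest 5′ end (6.87% against 98.2%). A run of 25 covered the start of AKR7L (14.6% against 98.3%), and a run of 24 lay in the pseudogene TRIM80P (8.44% against 94.5%). The KLF14 run held no MethylCap fragment of either line, and the CCDC102A run 1 of each. The AKR7L run held 4 of each, and the TRIM80P run 1 of HCT15 and 6 of PC3. Of the runs higher in HCT15, PRICKLE1 held 11 of HCT15 and 0 of PC3, GFPT2 26 and 0, ELFN1 1 and 0 and GABBR2 2 and 1. These counts are not scaled to the library totals, which were 3886402 fragments in HCT15 and 950278 in PC3.

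At the level of promoters the lines were again mostly alike. The median promoter was at 16.1% in HCT15 and 15.7% in PC3, or 5.26% and 4.99% without CCGG CpGs, and 84.1% of promoters lay within 20 points. There were 767 promoters higher in HCT15 (6.48%), in 725 separate windows, and 75 higher in PC3 (0.633%), in 70 separate windows. The ratio was 10.2. Just inside the threshold was CRTAC1 with 91.2% against 41.2%, and just outside it CCKBR with 79.8% against 29.8%.

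**Figure D3:**
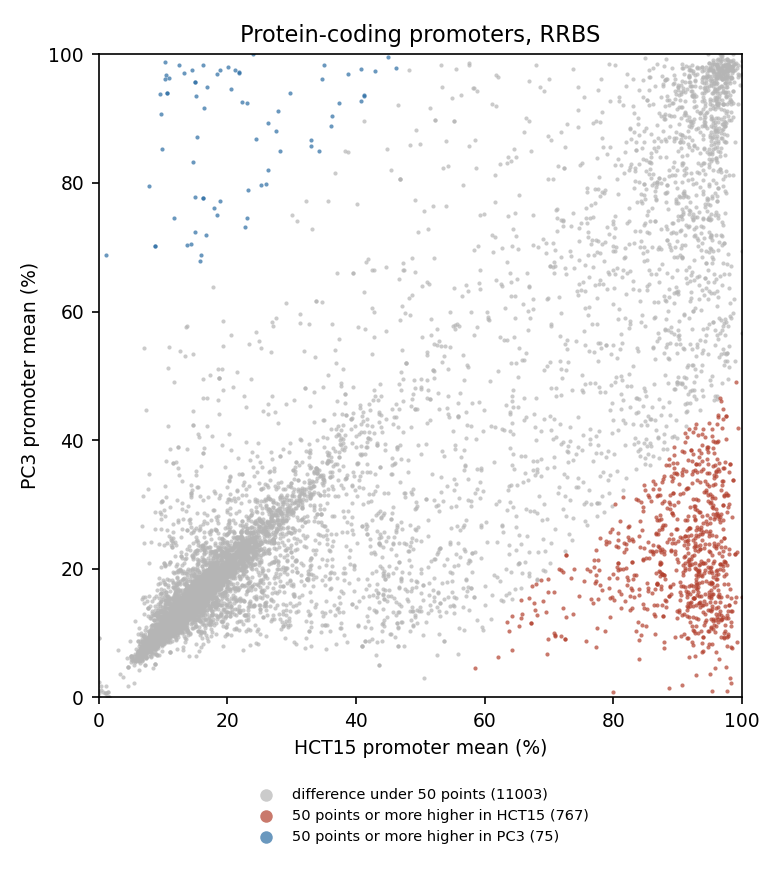
Mean methylation of 11845 protein-coding promoters in HCT15 (horizontal axis, %) and PC3 (vertical axis, %), 1 point per promoter. The 767 red points in the lower right are at least 50 points higher in HCT15 and the 75 blue points in the upper left at least 50 points higher in PC3.

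The 2 sets differed in their sequence. Promoters higher in HCT15 had a median ratio of observed to expected CpGs of 0.711 and a median of 127 CpGs in the window, close to the 0.699 and 113 of promoters not called. Promoters higher in PC3 had medians of 0.586 and 89. Median levels were 92.4% and 20.9% in the first set and 18.8% and 91.7% in the second. DU145, listed beside them without a comparison, had a median of 28.5% over 764 of the first set and 32.6% over 70 of the second. Its promoter means, here and below, are over all CpGs with at least 20 reads in DU145, not over the shared CpGs. At CDH2, for example, these were 59 CpGs, against 18 shared by HCT15 and PC3.

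The 12 largest differences towards HCT15, among promoters with at least 10 shared CpGs, included a pair of cadherins and several signalling genes. Means are given with their standard deviation over CpGs, which is the spread along a promoter and not between replicates. MIPOL1 averaged 97.7% ± 3.13 in HCT15 and 0.950% ± 1.25 in PC3 (SD, 12 CpGs). CDH2, the gene of N-cadherin, a cell adhesion molecule of mesenchymal and neural cells, averaged 98.1% ± 3.03 and 3.00% ± 11.1 (18 CpGs). PRICKLE1, which acts in planar cell polarity, averaged 95.1% ± 5.57 and 3.69% ± 12.7 (33 CpGs). In these promoters 12 of 12, 18 of 18 and 32 of 33 CpGs were each at least 50 points higher in HCT15, and the ranges of the 2 lines over CpGs did not overlap.

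The others were near full methylation in HCT15 too. GOLGA8A was at 95.8% against 4.49% and THRB, a thyroid hormone receptor, at 98.4% against 7.72%. H2AJ, a histone H2A variant, was at 99.3% against 8.63% and MPDZ, a scaffold protein with PDZ domains, at 97.7% against 7.96%. GPR12, an orphan G protein-coupled receptor, was at 96.0% against 7.09%. All of them lay between 95% and 100% in HCT15. CDH7, a second cadherin, was at 97.9% against 9.55% and GNB4, a G protein beta subunit, at 97.8% against 9.43%. MRI1, of the methionine salvage pathway, was at 97.9% against 9.82%, and BNIP3, which acts in mitophagy and is induced by hypoxia, at 97.2% against 9.17%. DU145 stood between 9.49% (MPDZ) and 12.5% (THRB) at PRICKLE1, THRB, H2AJ, MPDZ, GNB4, MRI1 and BNIP3. It stood at 24.1% at MIPOL1, 25.9% at GOLGA8A and 46.7% at GPR12, and at 83.0% at CDH2 and 98.4% at CDH7.

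The 12 largest differences towards PC3 ran from 78.6 to 88.4 points in size, below the 88.0 to 96.8 points of the 12 towards HCT15 for all but TGIF1. Without CCGG CpGs the same promoters ran from 86.5 (AKR7L) to 94.8 points (H2BC6) towards PC3. Those towards HCT15 then ran from 92.4 (GPR12) to 98.0 points (H2AJ), so that the 2 ranges overlapped more widely. TGIF1, a homeobox repressor in TGF-beta signalling, averaged 10.4% ± 22.2 in HCT15 and 98.8% ± 1.06 in PC3 (11 CpGs). The TGIF1 window, around the outermost 5′ end, was CpG-poor, with 44 CpGs in the reference. Its ratio of observed to expected CpGs was 0.346, below the median of 0.586 of promoters higher in PC3. PTP4A2, a protein tyrosine phosphatase, averaged 10.3% ± 19 and 96.1% ± 5.59 (18 CpGs), and PXMP4, a peroxisomal membrane protein, 10.9% ± 17.8 and 96.4% ± 8.01 (13 CpGs). Without CCGG CpGs the HCT15 means of these 3 were 4.57%, 2.68% and 4.00%. NAPRT, which makes NAD from nicotinic acid, had the most CpGs of the named promoters, and 69 of its 80 were called higher in PC3 (10.5% ± 20.8 against 96.8% ± 11.2).

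TNFRSF10D, a decoy receptor for the death ligand TRAIL, was at 12.5% in HCT15 and 98.3% in PC3. HOXB4, a homeobox gene, was at 9.52% against 93.8%, and H2BC6, a histone H2B gene, at 13.2% against 97.2%. PIH1D1, whose window overlaps that of ALDH16A1, was at 10.6% against 94.0%. DMRT2, a transcription factor gene, was at 14.5% against 97.6%, AKR7L at 16.3% against 98.4%, RASGRF2, a Ras exchange factor, at 9.69% against 90.7%, and PCDHGA10, a clustered protocadherin, at 18.9% against 97.6%. All 12 were above 90% in PC3 and under 20% in HCT15. DU145 was low at TGIF1 (11.9%), NAPRT (11.8%), PTP4A2 (9.26%), TNFRSF10D (13.2%), PIH1D1 (15.3%) and DMRT2 (22.5%). It was at 43.1% at RASGRF2, 77.8% at PCDHGA10, 98.6% at HOXB4 and 98.8% at H2BC6. PXMP4 and AKR7L held fewer than 5 CpGs with 20 reads in DU145 and have no value.

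Genes known for methylation in colorectal cancer were called towards HCT15 in 11 of 22 measured promoters (50%, against 6.48% of all promoters). None was called towards PC3, which is near the 0.633% of all promoters. The list median was 88.9% in HCT15 and 20.7% in PC3, beside 16.1% and 15.7% for all promoters. The median difference per promoter was 41.9 points. EYA4, a developmental regulator, was at 96.9% against 12.3% and CRABP1, which binds retinoic acid, at 94.0% against 14.3%. SDC2, a syndecan, was at 91.5% against 12.7%, and NDRG4 at 96.0% against 18.5%. Both SDC2 and NDRG4 are used as stool DNA markers of this cancer. Also called were ITGA4 (91.5% against 24.2%), BCAT1 (86.3% against 22.3%), ALX4 (90% against 27.8%), BMP3 (58.5% against 4.63%) and the Wnt antagonists named next. EYA4, CRABP1, BMP3 and ITGA4 rested on 7, 8, 9 and 5 shared CpGs. With a lowest coverage of 10 the difference fell to 61.4 points for CRABP1 and 57.1 for NDRG4. It rose for EYA4, SDC2, ITGA4, BCAT1, ALX4 and BMP3. SEPTIN9 was low in both lines around its 5′ end (12.6% and 14.1%).

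Wnt antagonists, secreted or intracellular brakes on Wnt signalling, were called towards HCT15 in 4 of 13 (30.8%, against 6.48% of all promoters) and towards PC3 in none (against 0.633%), and 3 of the 4 also belong to the colorectal list. FRZB was at 91.9% against 6.23%, SFRP1 at 96.5% against 36.4%, SFRP5 at 89.4% against 29.9% and WIF1 at 96.3% against 43.9%. FRZB and SFRP5 rested on 5 shared CpGs each, and FRZB differed by 60.8 points with a lowest coverage of 10. The last 3 were partly methylated in PC3, and each fell under 50 points in an alternative. With 500 bp either side SFRP1 differed by 46.7 points, and with a lowest coverage of 10 SFRP5 differed by 34.4 and WIF1 by 33.3. SFRP2 was high in both (90.6% and 86.9%), and APC, a part of the complex that degrades beta-catenin, was low in both (16.5% and 16.1%).

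Mesenchymal genes were called towards HCT15 in 5 of 12 (41.7%, against 6.48% of all promoters) and towards PC3 in none (against 0.633%). Besides CDH2 these were TWIST1, a transcription factor of the epithelial-mesenchymal transition (96.5% against 15.7%), FN1, fibronectin (95.7% against 23.9%), FBN1, fibrillin (93.3% against 36.2%), and VIM, vimentin (71.5% against 19.9%). VIM fell below the threshold with a lowest coverage of 10, at 26.1 points, and with 500 bp either side, at 36.7. The regulators SNAI1 (25.1% and 17.9%) and ZEB1 (30% and 19.7%) were under 20% in PC3 but not in HCT15, and neither was called.

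None of the 16 measured epithelial promoters was called in either direction, beside 6.48% and 0.633% of all promoters, and without CCGG CpGs 1 was called towards PC3. CDH1, the gene of E-cadherin, was at 20.9% in HCT15 and 21.7% in PC3, KRT8 at 10.1% and 10.3% and KRT18 at 17.3% in each. RAB25, a vesicle transport GTPase of epithelia, was at 30% and 75.1%, under the threshold. No transcript was measured, so promoter levels do not show whether these genes were expressed.

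**Figure D4:**
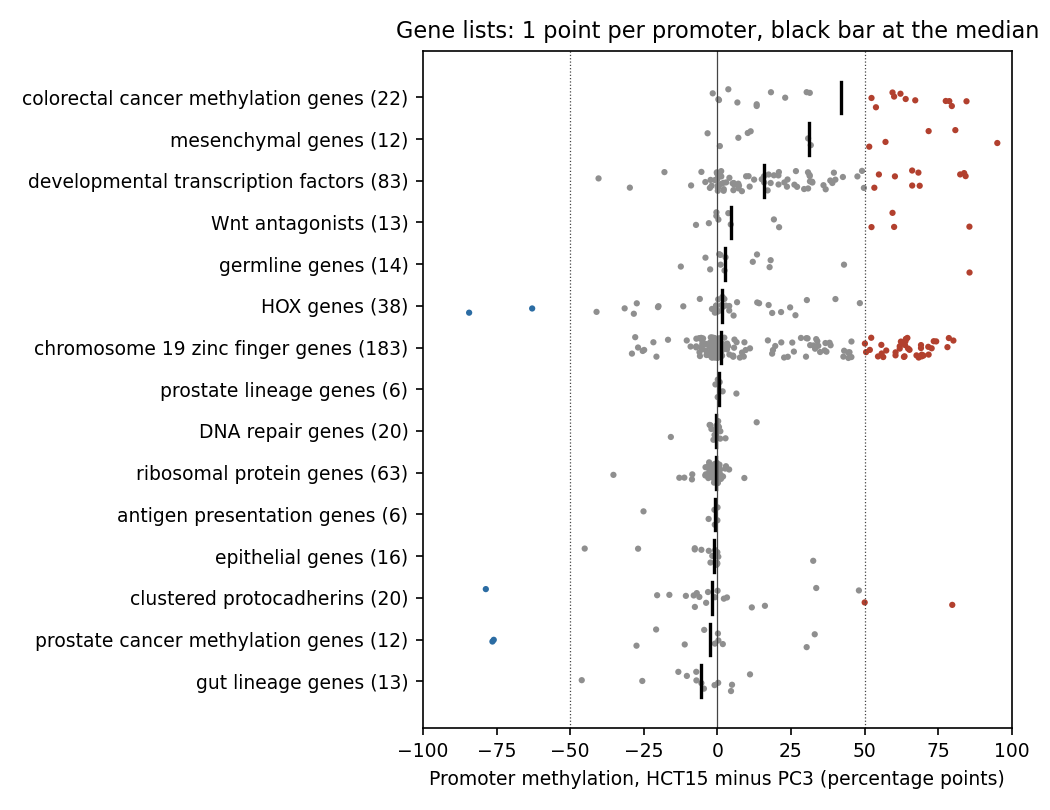
Difference in promoter methylation (HCT15 minus PC3, percentage points) for the measured members of 15 gene lists, with 1 point per promoter, a black bar at the list median and dotted lines at 50 points either way. Red points were called higher in HCT15 and blue points higher in PC3, and the number in brackets is the number of measured promoters, for example 22 for the colorectal list with a median of 41.9 points.

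Genes known for methylation in prostate cancer were called towards PC3 in 2 of 12 (16.7%, against 0.633% of all promoters). None was called towards HCT15, which for 12 promoters is close to the 6.48% of all promoters. PTGS2, the inducible cyclooxygenase, was at 24.0% in HCT15 and 100% in PC3 over 8 CpGs, and GPX3, a secreted glutathione peroxidase, at 21.2% and 97.6% over 9. GSTP1, a glutathione transferase often methylated in prostate cancer, was at 11.1% and 38.6%, with 61.0% in DU145, and RASSF1 was high in both lines (90% and 94.5%). CDKN2A, a cell cycle inhibitor gene on both cancer lists, was at 45.8% and 15.5% around its outermost 5′ end, which is not the start of the p16 transcript.

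No lineage gene was called, which for lists this small is close to the 6.48% and 0.633% of all promoters. Of 13 measured genes of the gut lineage, HNF4A, a nuclear receptor of gut and liver epithelium, had 17.7% in HCT15 and 63.8% in PC3. ASCL2, of intestinal stem cells, had 15.4% and 40.9%, and CDX2, which specifies intestine, 11.5% and 24.7%. These 3 were under 20% in HCT15, whereas MUC2, the intestinal mucin, was high in both (90.7% and 97.8%). The 3 do not stand for the list. Over the 13 the median difference was -5.43 points, within a range of -46.1 to 11.1. Of the 13, 4 were above 80% in both lines and 3 under 20% in both. Of 6 prostate lineage genes, 5 were under 20% in both lines, among them FOXA1 (14.2% and 14.0%) and HOXB13 (12.7% and 10.9%). HOXB13 was at 91.9% in DU145.

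Zinc finger genes of chromosome 19, which encode repressors that lie in tandem clusters, were called towards HCT15 in 37 of 183 (20.2%, against 6.48% of all promoters) and towards PC3 in none, which is near the 0.633% of all promoters. The list median was 33.9% in HCT15 and 22.5% in PC3, the median difference was 1.33 points, and 50 members were under 20% in both lines. The called promoters averaged between 79.3% and 98.6% in HCT15. ZNF773 was at 89.6% against 9.38%, ZNF530 at 93.3% against 14.7% and ZNF134 at 91.1% against 12.9%. The others were ZNF536, ZNF302, ZNF625, ZNF677, ZNF525, ZNF549, ZNF461, ZNF846, ZNF345, ZNF790, ZNF547, ZNF93, ZFP28, ZNF772, ZNF433, ZNF671, ZNF665, ZNF610, ZNF606, ZNF813, ZNF667, ZNF529, ZNF382, ZNF85, ZNF347, ZNF550, ZNF844, ZNF570, ZNF304, ZNF43, ZNF229, ZFP82, ZNF880 and ZNF132. Genes with overlapping windows share CpGs, as ZNF345 and ZNF790 (both 86.8% against 17.7%) and ZNF529 and ZNF382 (both 82.9% against 21%) do, so the 37 are not independent. ZNF229 and ZNF132 differed by 37.2 and 25.5 points with a lowest coverage of 10, and ZFP82 by 49.1 after thinning to 20 reads.

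The largest groups of neighbouring called promoters lay in that family. When called promoters within 100 kb of each other were joined, by a rule chosen after their values were seen, the largest group lay at chr19:57988904-58125601. It held 7 called of 11 measured promoters, with medians of 89.6% and 14.1%, namely ZNF772, ZNF773, ZNF549, ZNF550, ZNF530, ZNF134 and a gene with no symbol. The largest groups higher in PC3 held 2 promoters each, for example H2BC6 and H4C4, both histone genes, at chr6:26172287-26189340 (17.5% against 97.2%).

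Developmental transcription factors outside the HOX clusters were called towards HCT15 in 10 of 83 (12.0%, against 6.48% of all promoters) and towards PC3 in none, again near the 0.633% of all promoters. The list median was 85.9% in HCT15 and 46.6% in PC3, but the median difference per promoter was 15.9 points. Of the 83, 16 were above 80% in both lines. SOX2, a pluripotency and neural factor, was at 97.8% against 13.5%, IRX2 at 95.8% against 12.0%, SOX21 at 94.2% against 11.8% and TBX2 at 78.7% against 10.4%. The other 6 were LHX6, SOX30, GSX2, BARHL1, SOX5 and POU3F2. POU3F2 differed by 27.2 points with 500 bp either side, and SOX30 by 39.8 with a lowest coverage of 10. At the other end DLX6 had 10.8% in HCT15 and 51.1% in PC3.

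HOX genes, which pattern the body axis, were called towards PC3 in 2 of 38 (5.26%, against 0.633% of all promoters) and towards HCT15 in none (against 6.48%). Without CCGG CpGs 1 HOX promoter was called towards HCT15. HOXB4 is given above and HOXB7 was at 11.7% against 74.6%. Their neighbours HOXB5 (15.2% and 35.2%) and HOXB8 (20.9% and 48.2%) were below the threshold, and HOXB3 (14.6% and 14.9%) and HOXB9 (15.7% and 16.2%) were alike. In the HOXD cluster HOXD10 had 97.9% in HCT15 and 49.5% in PC3, just under the threshold. Of 20 clustered protocadherins, neuronal adhesion genes, 2 (10%) were called towards HCT15 and 1 (5%) towards PC3, shares that rest on few promoters beside 6.48% and 0.633% of all. They were PCDHAC1 (92.4% against 12.6%) and PCDHA8 (99.0% against 49.0%) higher in HCT15 and PCDHGA10 higher in PC3. PCDHA8 was at 47.9 points with a lowest coverage of 10.

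The remaining lists held 1 called promoter in all. Of 14 germline genes, which are normally methylated outside germ cells, 8 were above 80% in both lines and TEX15 alone was called (95.9% against 10.2%), a share of 7.14% close to the 6.48% of all promoters, with 2 called towards HCT15 without CCGG CpGs. Over all promoters 6.48% were called towards HCT15 and 0.633% towards PC3. The median promoter was itself under 20% in both lines (16.1% and 15.7%). Of 20 DNA repair genes 15 were under 20% in both lines and none was called, close to those shares for a list this small. BRCA1 was at 23.7% and 23.5%. Of 63 ribosomal protein genes 45 were under 20% in both and none was called, beside 6.48% and 0.633% of all promoters. Their lowest difference was -35.3 points at RPL37A (19.4% and 54.7%). Of 6 measured antigen presentation genes none was called, which for 6 is close to the shares of all promoters. B2M, a subunit of MHC class I, was at 13.1% and 14.0%.

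MethylCap libraries of the same 2 lines gave a separate measurement of these promoters. Each line has 1 MethylCap library. Fragments were counted in the same windows and divided by the library total of 3886402 in HCT15 and 950278 in PC3, giving fragments per 1000000 fragments of the library (RPM), so that 1 fragment is 0.257 RPM in HCT15 and 1.05 RPM in PC3. A promoter with few fragments thus has a coarse value, in PC3 above all. For each promoter with a fragment in either line, the line with the higher RPM was recorded.

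MethylCap depth had the direction of the RRBS difference at most called promoters. Of 767 promoters higher in HCT15 by RRBS, 663 (86.4%) had a higher MethylCap RPM in HCT15, beside 62.7% of all promoters with a fragment. Of 73 promoters higher in PC3 with a fragment, 65 (89.0%) had the higher RPM in PC3, beside 37.3% of all. Promoters higher in HCT15 held on average 5.53 RPM in HCT15 and 2.47 in PC3, with exact Poisson intervals of 5.44 to 5.61 and 2.36 to 2.59. Promoters higher in PC3 held 1.90 (1.75 to 2.07) and 5.36 (4.84 to 5.93), and promoters not called 1.77 and 1.67. The intervals are at the 95% level and cover counting error only.

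The MethylCap difference was graded with the RRBS difference. The share of promoters with the higher RPM in HCT15 went from 11.0% where RRBS was at least 50 points higher in PC3, through 18.8% and 30.6%, to 60.6% where the lines lay within 10 points. It went on to 68.5%, 75.9% and 86.4% as the RRBS difference towards HCT15 grew. Depth in PC3 was 3.86 RPM at 10 to 30 points and 2.47 at 50 points or more.

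**Figure D5:**
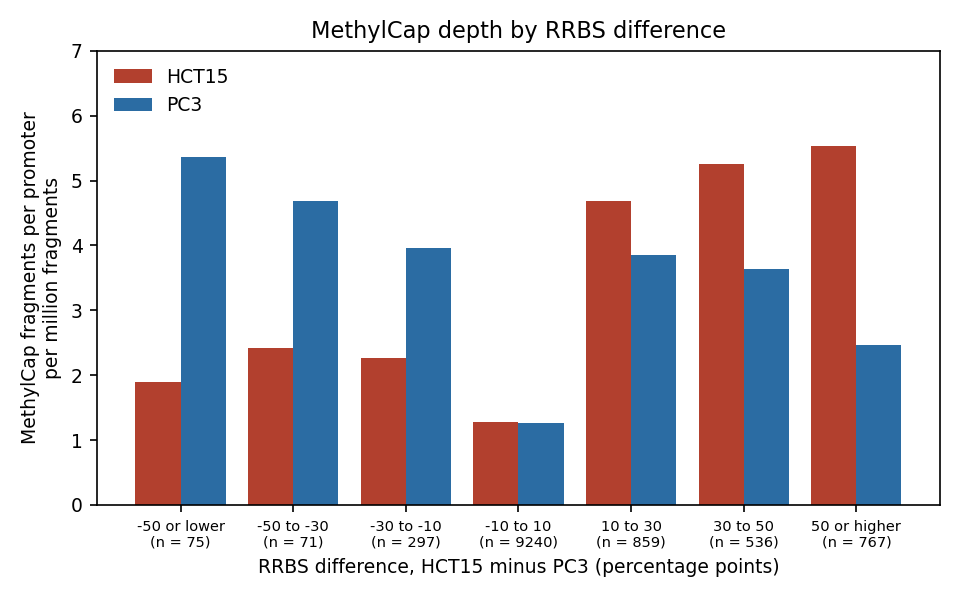
MethylCap fragments per promoter in RPM (vertical axis) for HCT15 (red bars) and PC3 (blue bars), by class of the RRBS difference HCT15 minus PC3 in percentage points (horizontal axis, with the number of promoters). The PC3 bar is the taller in the 3 classes below -10 points, the bars are nearly equal from -10 to 10 points (1.28 and 1.26), and the HCT15 bar is the taller in the 3 classes above.

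Single promoters showed how few fragments stand behind a direction. CDH2 had 10 fragments in HCT15 and 0 in PC3, BNIP3 29 and 0, H2AJ 26 and 0 and SDC2 26 and 0. A count of 0 in PC3 allows up to 3.88 RPM by the exact Poisson interval, above the 2.57 measured for CDH2 in HCT15, so CDH2 alone could not be separated at this depth, whereas BNIP3 with 7.46 (5.00 to 10.7) could. NAPRT had 4 and 23 fragments, which is 1.03 RPM (0.280 to 2.64) and 24.2 RPM (15.3 to 36.3). HOXB7 had 0 and 9 fragments and HOXB4 0 and 2, whereas PTGS2 had none in either line. PTP4A2 had 12 in HCT15 and 3 in PC3, or 3.09 and 3.16 RPM, and DMRT2, with 7 and 1, had 1.80 and 1.05, against its RRBS direction. Among promoters higher in HCT15 by RRBS, NDRG4, with 8 and 3 fragments, had 2.06 and 3.16 RPM. WIF1, with 23 and 7, had 5.92 and 7.37, so both also went against RRBS.

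The 104 promoters higher in HCT15 by RRBS that MethylCap placed higher in PC3 had a median of 16 fragments in HCT15 and 6 in PC3, compared with 20 and 1 at the 663 others. Their median RRBS level in PC3 was 27.9%, compared with 20%. The 8 promoters that went against RRBS in the PC3 direction had medians of 6 fragments in HCT15 and 1 in PC3.

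The other kits, each with 1 library per line, were counted in the same way. MethylCollector had the RRBS direction at 94.1% and 86.2% of promoters higher in HCT15 and in PC3, MethylCollector Ultra at 96.2% and 94.4%, and MethylMagnet at 89.4% and 81.3%. Over all promoters with a fragment of the kit, the RPM was higher in HCT15 at 70.9% with MethylCollector, 57.3% with MethylCollector Ultra and 46.2% with MethylMagnet, and higher in PC3 at 29.1%, 42.7% and 53.8%. The MethylMiner libraries stood apart. MethylMiner, with the most fragments (7344098 and 2092970), had it at 31.4% and 52%. Of promoters not called, 38.9% had the higher MethylMiner RPM in HCT15 and 61.1% in PC3.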

How the data were processed

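RRBS was done by a sequencing service with 1 library per line. Per CpG of hg19, the authors deposited 2 read counts, methylated and total, summed over the strands, and the aligner is not given in the sources used here. For capture libraries the authors aligned pairs by Bowtie to this build, collapsed duplicates and deposited unscaled depth (coverage signal). Median RRBS coverage was 18 reads in HCT15, 20 in PC3 and 25 in DU145, with a lowest of 6.

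Rows not on a CG of GRCh37 were dropped, and fragments were counted from rises and falls of the depth. Genes and exons came from GENCODE 44 on GRCh37, with the 5′ end taken as the outermost end of the gene. Promoter levels are unweighted means over CpGs, and intervals of fragment counts are exact Poisson at 95%. With 1 library per line, calls were made by size. Fisher's exact test with Benjamini-Hochberg adjustment compared the reads of the 2 libraries.

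Named promoters are the 12 largest called differences in each direction among those with at least 10 CpGs and non-overlapping windows, plus every called member of 15 gene lists. The comparison, lists and rules were chosen with earlier results of these data known. Stretches of sequence that touch an annotated untranslated region were not printed, so none is shown for MIPOL1 and TGIF1. The rule also left out NAPRT and TNFRSF10D by their chromosome, and 1 further stretch is not reported here. Scripts were tested on simulated data and used scipy 1.17.1 and numpy 2.4.6 under Python 3.11.15.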

Additional observations from a re-analysis of the deposited data

How the results depend on the processing

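No paired analysis was possible because each line has 1 RRBS library. The direction of the imbalance was towards HCT15 in every alternative run, with a ratio of 3.15 to 5.07 for CpGs and 7.78 to 11.7 for promoters. The number of CpGs higher in HCT15 and in PC3 was 124224 and 34012 with a lowest coverage of 10, and 15857 and 3605 with 50, where more or fewer CpGs were measured (1774700 and 224804). It was 124661 and 39606 at 30 points and 39661 and 7830 at 70 points. Promoters numbered 1303 and 146 at 30 points, and 1167 and 150 with genes of every type, since 18904 were then measured. Counts stayed within 1.5 times of those reported with thinning to 20 reads, without the CpGs of highest coverage, and with pooled reads. The same held with 500 bp either side and with at least 10 CpGs. Asking for Fisher's exact test besides size gave the same 69234 and 17054 CpGs. A difference of 50 points at 20 reads or more passes that test, so this alternative could not change the counts. Leaving out CCGG CpGs, an alternative chosen after seeing the data, gave 860 and 78 promoters, of which 734 and 72 were among those reported. The share with the RRBS direction was 94.1% with MethylCollector and 89.4% with MethylMagnet for promoters higher in HCT15, 96.2% and 94.4% with MethylCollector Ultra for the 2 directions, and 31.4% and 52% with MethylMiner, and the cause was not tested. Of 93 named promoters, 10 fell under 50 points in some alternative and none reversed. Depth limits single CpGs, which rest on as few as 20 reads, and MethylCap in PC3, where 1 fragment is 1.05 RPM (fragments per 1000000).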
